A study of Mus musculus with 8 samples.

Results

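A set of 9 secretory products of the mouse prostate, named here by their gene symbols *Pbsn*, *Sbp*, *Msmb*, *Tgm4*, *Acpp* (now also called *Acp3*), *Azgp1*, *Defb50*, *Apof* and *Mmp7*, were followed in 4 *Olfm4*-knockout and 4 wild-type mice, as whole prostate. Every probe set whose annotation held 1 of the 9 symbols was taken, which gave 10 of 45037 probe sets and 8 of the 9 genes. *Defb50*, a beta-defensin, was matched by no probe set in the annotation used and is not analysed here. *Acpp* had 3 probe sets. *Sbp* was matched only by 1418307_a_at, which is also annotated to its neighbour *Sbpl*, so the 2 genes cannot be told apart and the measurement is written *Sbp/Sbpl*.

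The knockout mice lacked *Olfm4* constitutively, and the line was kept by crossing heterozygotes. Both genotypes were 3 months old and shared a mixed background, 50% of it 129/SV and the rest (50%) Black Swiss of the National Institutes of Health. RNA of 1 mouse was hybridised to each genome-wide Affymetrix array that the methods name. The labels give 4 mice per genotype and the methods give 5, while a figure legend of the study gives 4 or 3 for its arrays. Knockout arrays 3 and 4 and wild-type arrays 1 and 4 were run on array day 1, and knockout arrays 1 and 2 and wild-type arrays 2 and 3 on array day 2. Whole prostate was taken, and the labels do not say how much of each lobe or of the adjoining seminal vesicle a sample held. In bulk tissue, fewer cells of a type and less RNA per cell cannot be told apart.

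The deposited values are on the log2 scale, on which a difference of 1 is a 2-fold change. The median of an array lay between 6.03 and 6.09 and the highest value of any probe set was 14.79. *Olfm4* itself was 3.09, 3.00, 3.25 and 3.09 on the knockout arrays and 10.32, 10.23, 10.74 and 10.65 on the wild-type arrays (log2 difference -7.37, adjusted p = 1.79e-06). Arrays correlated with each other between 0.983 and 0.996. Knockout array 1 stood apart from the rest: its highest correlation with any array was 0.986, and the lowest correlation among the other 7 arrays was 0.988. On it 185 probe sets were lower than on all 7 others by more than 1 on the log2 scale, and 313 were higher by as much, where other arrays had 3 to 15 lower and 3 to 65 higher. Results that rest on this array are given with and without it.

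The prostate is an androgen-dependent exocrine gland. Its luminal epithelial cells release proteins into the ducts that later mix with seminal vesicle fluid to form semen. In the mouse the gland has anterior, dorsal, lateral and ventral lobes, each with its own duct system, and the lobes differ in what they secrete. Spermine binding protein (*Sbp*) is known as a product of the ventral lobe, transglutaminase 4 (*Tgm4*) of the anterior lobe, or coagulating gland, and probasin (*Pbsn*) of the dorsal and lateral lobes. Transcription of probasin is driven by androgen through sites in its promoter, and that promoter is widely used to direct transgenes to prostate epithelium.

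Sequence before the start site is shown for members on either side of the main contrast in these data, *Sbp/Sbpl*, which was far below its usual level on knockout array 1, and *Pbsn*, *Tgm4* and *Mmp7*, which were not. RefSeq promoters of the GRCm38.p6 build, 250 bases before to 50 after each start, were matched for 6 members, *Acpp*, *Azgp1*, *Mmp7*, *Pbsn*, *Sbp* and *Tgm4*. *Sbp* had 3 annotated starts, and the third, the only one of them with a match to a motif searched, is printed, as is that of *Sbpl*, which shares the probe set. Each line gives the 150 bases before the start, 5′ to 3′ on the gene's strand, at chrX:77853501-77853650 (minus strand) for *Pbsn*, chr9:123034591-123034740 (plus) for *Tgm4*, chr9:7691940-7692089 (plus) for the first start of *Mmp7*, chr17:23941768-23941917 (plus) for *Sbp* and chr17:23955274-23955423 (minus) for *Sbpl*. Capitals mark TATAAA on the sense strand, the TATA box letters, and AGAACA on either strand, the core hexamer of steroid hormone response elements (TGTTCT when read from the other strand).
Pbsn: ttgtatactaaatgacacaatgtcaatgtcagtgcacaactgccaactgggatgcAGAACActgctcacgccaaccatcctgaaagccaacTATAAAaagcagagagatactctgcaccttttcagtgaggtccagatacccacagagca
Tgm4: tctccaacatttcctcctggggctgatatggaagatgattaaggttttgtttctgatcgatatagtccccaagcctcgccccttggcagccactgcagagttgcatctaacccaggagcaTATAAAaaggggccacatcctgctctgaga
Mmp7: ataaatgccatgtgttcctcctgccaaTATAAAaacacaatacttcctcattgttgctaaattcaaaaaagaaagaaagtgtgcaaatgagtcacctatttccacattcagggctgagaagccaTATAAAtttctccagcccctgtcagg
Sbp: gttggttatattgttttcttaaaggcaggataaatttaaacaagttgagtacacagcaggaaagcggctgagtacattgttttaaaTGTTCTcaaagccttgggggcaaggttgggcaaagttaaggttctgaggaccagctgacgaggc
Sbpl: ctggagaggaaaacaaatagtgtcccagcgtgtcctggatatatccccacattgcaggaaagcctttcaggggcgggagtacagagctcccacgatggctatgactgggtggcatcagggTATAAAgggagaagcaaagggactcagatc

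TATAAA was found in the 300-base windows of 3 of the 6 members. It began 30 bases before the start of *Tgm4*, 59 before that of *Pbsn*, and 26 and 123 before the first start of *Mmp7*. *Sbpl*, which is not counted among the 6, also had it, 30 bases before its start. In all 32851 promoters of the table, 8.32% held it on the sense strand. The hexamer AGAACA, on either strand, was in a window of 4 of the 6 members (*Azgp1*, *Mmp7*, *Pbsn* and *Sbp*) and in 19.0% of all promoters. It began 95 bases before the start of *Pbsn* and 64 before the third start of *Sbp*. The full palindrome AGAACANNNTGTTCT was in no window of a member and in 0.00913% of all promoters. A member was counted if any of its starts had a match, while each start counts singly in the share of all promoters. *Sbp* and *Mmp7* had several starts, so the member counts and those shares are on unlike units. These matches describe letters in a short window and not binding.

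None of the 10 probe sets differed between *Olfm4*-knockout and wild-type prostate past the threshold. The smallest p belonged to *Mmp7*, matrilysin, and to the brightest probe set of *Acpp*, prostatic acid phosphatase, both higher on every knockout array than on every wild-type array. The most negative differences were those of *Sbp/Sbpl* and *Msmb*, beta-microseminoprotein, whose knockout means lay above the wild-type means once knockout array 1 was left out. *Pbsn*, *Tgm4* and *Azgp1* had differences between 0.065 and 0.118 on the log2 scale. The limma fit held genotype and array day, and calls were made at 0.05 after adjustment over all 45037 probe sets. The count was 0 of 10 called, where 0.111% of all probe sets were called. At an unadjusted p under 0.05, 3 of 10 were higher in knockout prostate (2 *Acpp* probe sets and *Mmp7*) and 0 lower, where 5.46% of all probe sets were higher and 7.34% lower. The difference was above 0 for 7 of 10 and below 0 for 3, with a median of 0.09, against a median of -0.01 over all probe sets. Without knockout array 1, the unadjusted p from limma was 0.111 for the *Acpp* probe set 1419832_s_at. It was 0.0107 for *Acpp* 1441975_at and 0.00441 for *Mmp7*. The p-values set the genotype difference against the spread between single mice within genotype and array day.

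**Figure D1:**
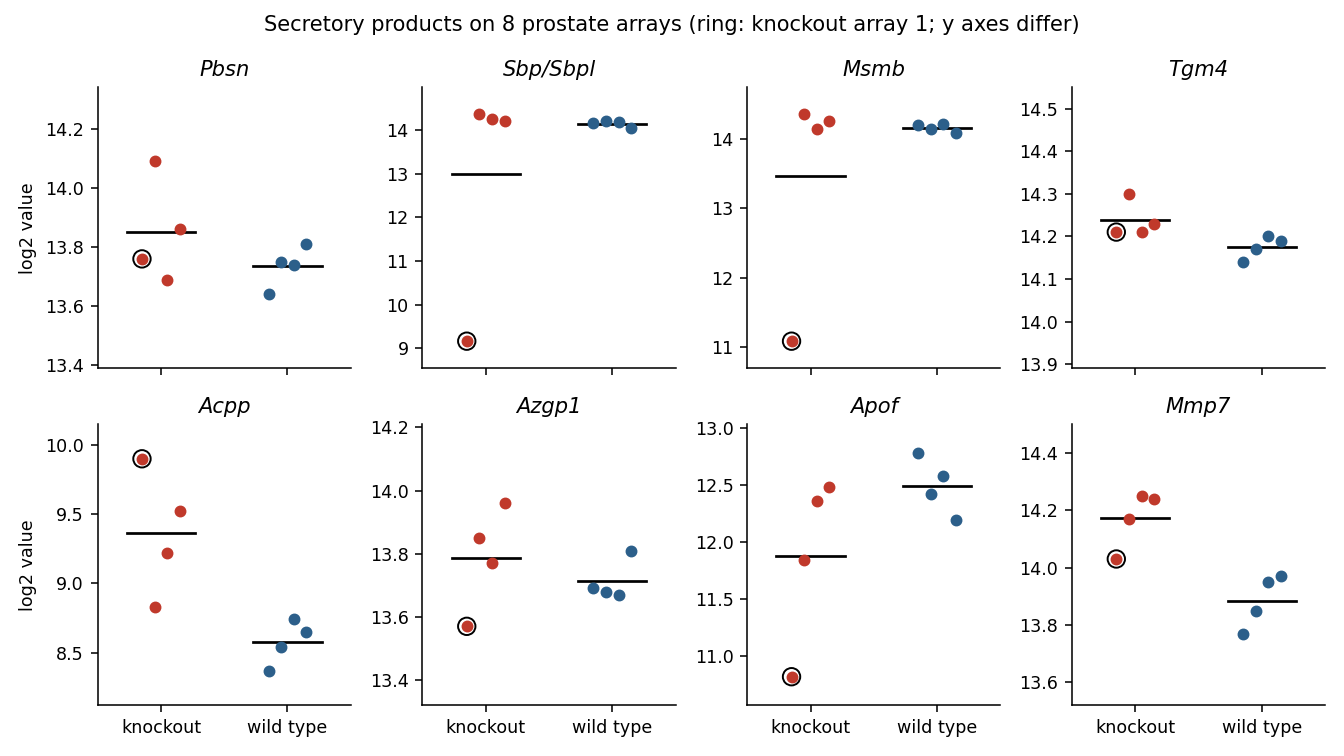
Log2 value (y axis, a different scale in each panel) of the 8 measured genes on every array, knockout on the left in red and wild type on the right in blue, with a horizontal line at the group mean and a ring around knockout array 1. *Acpp* is shown at its brightest probe set. The ringed array lies at 9.16 for *Sbp/Sbpl* and at 11.09 for *Msmb*, far under the other 7 arrays, and inside or near the other values for *Pbsn*, *Tgm4*, *Azgp1* and *Mmp7*.

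Among the small secreted carrier and binding proteins, probasin, a lipocalin, lay within 0.46 on the 8 arrays. *Pbsn* (1449320_at) was 13.76, 14.09, 13.69 and 13.86 on the knockout arrays and 13.64, 13.75, 13.74 and 13.81 on the wild-type arrays. The groups overlapped, and knockout array 2 was the highest of the 8. The mean was 13.85 ± 0.18 in knockout and 13.73 ± 0.07 in wild-type prostate (SD, n = 4 each), a log2 difference of 0.12 (95% confidence interval -0.10 to 0.34, adjusted p = 0.652 from limma).

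*Sbp/Sbpl* (1418307_a_at), the polyamine-binding glycoprotein and its neighbour, had values of 9.16, 14.36, 14.26 and 14.22 on the knockout arrays, against 14.16, 14.20, 14.19 and 14.06 on the wild-type arrays. The other 7 arrays lay within 0.30 of each other, and knockout array 1 lay 4.90 below the lowest of them. The knockout mean was 13.0 ± 2.56 and the wild-type mean 14.15 ± 0.06 (SD, n = 4 each). The log2 difference of -1.15 had a confidence interval from -3.63 to 1.33 (adjusted p = 0.696 from limma). Without knockout array 1 the difference was 0.14, with an interval from -0.01 to 0.30 (adjusted p = 0.412), so the sign of the difference rests on that array.

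*Msmb* (1421687_at) encodes beta-microseminoprotein, a small cysteine-rich protein that is among the abundant secretions of the human prostate. It was 11.09, 14.35, 14.14 and 14.26 on the knockout arrays and 14.20, 14.14, 14.22 and 14.09 on the wild-type arrays. The pattern was that of *Sbp/Sbpl*, with 7 arrays within 0.26 of each other and knockout array 1 lower by 3.00 than the lowest of them. The knockout mean was 13.46 ± 1.58 and the wild-type mean 14.16 ± 0.06 (SD, n = 4 each), a log2 difference of -0.70 (interval -2.24 to 0.84, adjusted p = 0.702 from limma). Without knockout array 1 it was 0.10 (adjusted p = 0.614), again with the sign turned.

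Of the secreted enzymes, *Tgm4* (1438341_at), which cross-links seminal vesicle proteins into the copulatory plug, had the smallest spread, at a level near the top of the array's scale. Its values were 14.21, 14.30, 14.21 and 14.23 on the knockout arrays and 14.14, 14.17, 14.20 and 14.19 on the wild-type arrays. The 2 groups did not overlap, but their means were only 0.06 apart on the log2 scale (14.24 ± 0.05 in knockout and 14.17 ± 0.02 in wild-type prostate, SD, n = 4 each). The interval of the difference ran from -0.07 to 0.20 (adjusted p = 0.683 from limma). *Tgm4*, *Acpp* and *Mmp7* were the 3 of 10 probe sets whose knockout values all lay above the wild-type values, where 3.69% of all probe sets did so. None had knockout values that all lay below, where 5.03% of all did so.

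*Acpp*, prostatic acid phosphatase, is made in a secreted and a membrane-bound form. Its brightest probe set (1441975_at) was 9.90, 8.83, 9.22 and 9.52 on the knockout arrays and 8.37, 8.54, 8.74 and 8.65 on the wild-type arrays. Knockout arrays 1 and 4 were the highest, and the lowest knockout array lay 0.09 above the highest wild-type array. The mean was 9.37 ± 0.45 in knockout and 8.57 ± 0.16 in wild-type prostate (SD, n = 4 each), a 1.73-fold difference with a 95% confidence interval of 1.21 to 2.47 (log2 difference 0.79, adjusted p = 0.26 from limma). It was 0.86 within array day 1 and 0.73 within array day 2, on each of which 0.00888% of all probe sets were called. Without knockout array 1 it was 0.59 (adjusted p = 0.261).

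The other *Acpp* probe sets were dimmer. Probe set 1419832_s_at was 5.97, 5.22, 5.44 and 5.77 on the knockout arrays and 4.99, 4.80, 5.42 and 5.25 on the wild-type arrays. Here too knockout arrays 1 and 4 were the highest, although the groups overlapped at knockout array 2 (log2 difference 0.48, adjusted p = 0.376 from limma). Without knockout array 1 the difference was 0.335 (adjusted p = 0.479). Probe set 1453943_a_at was 5.56, 5.27, 5.47 and 5.55 on the knockout arrays and 5.36, 5.14, 5.37 and 5.55 on the wild-type arrays. Its groups overlapped across most of their range and the difference was 0.11 (adjusted p = 0.679). The 3 probe sets thus had positive differences of unequal size, and their mean differed by 0.46 (adjusted p = 0.309).

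The mean values of the basal epithelium and fibroblast marker lists were also high on knockout arrays 1 and 4. The mean log2 value of 8 of 8 basal markers (*Krt5*, *Krt14*, *Krt15*, *Trp63* and others) was 10.51, 10.04, 10.20 and 10.41 on the knockout arrays and 10.28, 9.91, 10.16 and 9.76 on the wild-type arrays. That of 6 of 6 fibroblast markers (*Col1a1*, *Col3a1*, *Dcn* and others) was 10.62, 10.14, 10.24 and 10.56 on the knockout arrays and 10.08, 10.30, 10.03 and 10.20 on the wild-type arrays. Knockout array 1 was the highest of the 8 arrays for only 3 of the 8 basal and 2 of the 6 fibroblast markers, and the lowest for none. All 8 basal and all 6 fibroblast markers had a positive genotype difference, against a median of -0.01 over all probe sets. The differences ran from 0.021 (*Ngfr*) to 0.497 (*Krt17*) and from 0.065 (*Col1a2*) to 0.465 (*Lum*). The markers of a list were measured on the same mice and are not independent. None was called, where 0.111% of all probe sets were called. Their part in the *Acpp* difference was not tested.

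*Mmp7* (1449478_at), matrilysin, is a small secreted metalloproteinase of glandular epithelium that in the mouse intestine activates alpha-defensins. It was 14.03, 14.17, 14.25 and 14.24 on the knockout arrays and 13.77, 13.85, 13.95 and 13.97 on the wild-type arrays. Every knockout array lay above every wild-type array, knockout array 1 being the lowest of its group by 0.14. The mean was 14.17 ± 0.10 in knockout and 13.89 ± 0.09 in wild-type prostate (SD, n = 4 each), a 1.22-fold difference with an interval of 1.07 to 1.38 (log2 difference 0.29, unadjusted p = 0.0076 and adjusted p = 0.26 from limma). The difference was 0.37 within array day 1 and 0.20 within array day 2. Without knockout array 1 it was 0.33 (adjusted p = 0.222, with 0.0955% of all probe sets called), and without knockout array 1 and wild-type array 1 it was 0.27 (adjusted p = 0.276, with 0.0822% called).

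**Figure D2:**
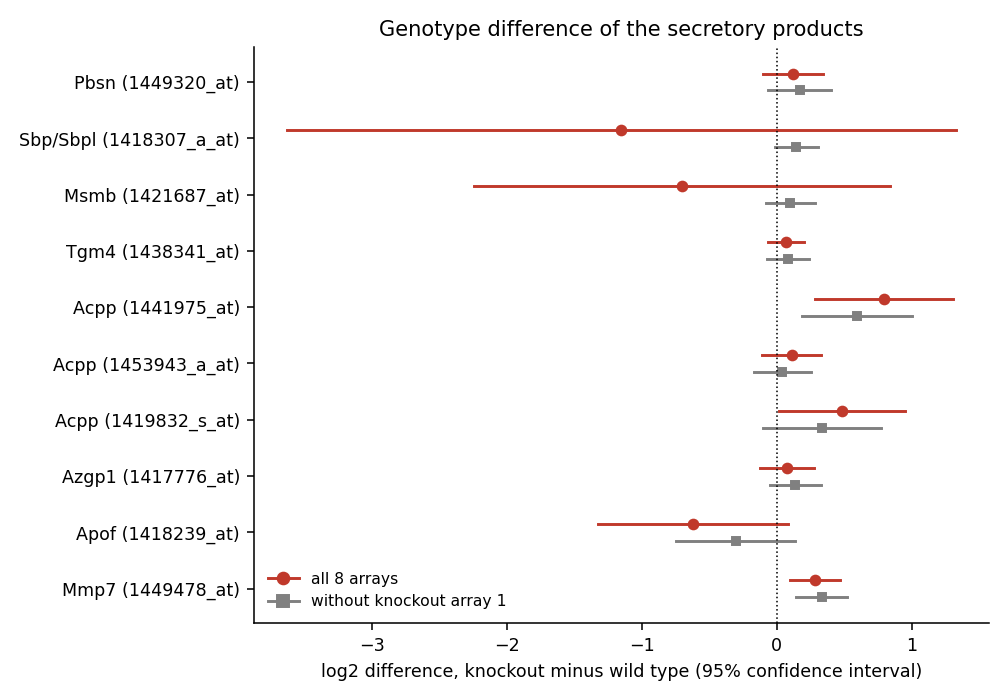
Log2 difference, knockout minus wild type, of the 10 probe sets (x axis), with 95% confidence intervals, from all 8 arrays (red circles) and without knockout array 1 (grey squares). Without that array the intervals of *Sbp/Sbpl* and *Msmb* are narrower and their estimates are 0.14 and 0.10, against -1.15 and -0.70 from all arrays, while those of *Mmp7* (0.29 and 0.33) and of the brightest *Acpp* probe set (0.79 and 0.59) stay above 0.

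The other secreted proteins were *Azgp1*, zinc-alpha-2-glycoprotein, which has the fold of a class I histocompatibility molecule and is linked to lipid mobilisation, and *Apof*, an apolipoprotein best known from plasma. *Azgp1* (1417776_at) was 13.57, 13.85, 13.77 and 13.96 on the knockout arrays and 13.69, 13.68, 13.67 and 13.81 on the wild-type arrays. The groups overlapped, with both the lowest and the highest value in knockout prostate. The difference was 0.07 (interval -0.13 to 0.27, adjusted p = 0.773 from limma).

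*Apof* (1418239_at) was 10.82, 11.84, 12.36 and 12.48 on the knockout arrays and 12.78, 12.42, 12.58 and 12.19 on the wild-type arrays. Knockout arrays 1 and 2 were the lowest of the 8, and knockout array 1 lay 1.01 under the next. The mean was 11.87 ± 0.76 in knockout and 12.49 ± 0.25 in wild-type prostate (SD, n = 4 each), a log2 difference of -0.62 (interval -1.32 to 0.09, adjusted p = 0.452 from limma). The low values lay on array day 2, where the difference was -1.17, against -0.07 on array day 1. Without knockout array 1 it was -0.31 (adjusted p = 0.521).

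Secretory products separated on knockout array 1. Against the median of the other 7 arrays, *Sbp/Sbpl* was 32.8-fold lower there, *Msmb* 8.59-fold lower and *Apof* 3.02-fold lower. *Azgp1* was lower by 0.20 on the log2 scale, *Pbsn*, *Tgm4* and *Mmp7* lay within 0.06 of that median, and the brightest *Acpp* probe set was 1.16 higher. These values describe 1 mouse, and these differences from the median were not tested. The gaps of *Sbp/Sbpl* and *Msmb* within the knockout group are set against Dixon's critical value further below. The folds are those of the deposited values, and for *Sbp/Sbpl* and *Msmb* the median they are set against, 14.20, lies close to the highest value of any probe set, 14.79, where differences may be compressed. The medians of *Tgm4* (14.20) and *Mmp7* (13.97) lie in the same range, so their differences may be understated too. Ranked by how far knockout array 1 fell below the lowest of the other arrays, *Sbp/Sbpl* was number 11, *Msmb* number 31 and *Apof* number 183 of 45037 probe sets, and all 3 were among the 0.411% that were lower by more than 1.

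Other transcripts that were low on knockout array 1 were named after their values were seen. *H2-Q10*, a class I histocompatibility gene, was 3.64 there and 11.59 to 12.44 on the other arrays. *Spink5*, a serine protease inhibitor, was 2.82 there and higher by 7.18 or more on every other array. *Wfdc3*, which encodes a secreted protein with whey acidic protein domains, was 5.91 there and 13.03 to 13.41 elsewhere. *Spink1*, the Kazal-type trypsin inhibitor of secretions, was 12.88 there and 14.15 to 14.42 elsewhere. The direction was the same as for *Sbp/Sbpl* and *Msmb*, and the other 3 knockout arrays lay in one range with the wild-type arrays.

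Luminal and androgen-response genes were measured beside these products. Knockout array 1 was the lowest of the 8 arrays for 6 of the 13 measured and the highest for 2. The 6 were *Creb3l4* (8.04, against 8.90 to 9.84 elsewhere), *Fkbp5* (10.55, against 11.00 to 12.20), *Foxa1* (12.45, against 12.73 to 12.95), *Hoxb13* (13.11, against 13.28 to 13.48), *Spdef* (11.55, against 11.61 to 11.93) and *Slc45a3* (11.33, against 11.38 to 11.64). Knockout array 1 was the highest for *Ndrg1* (11.76, against 11.17 to 11.53 elsewhere) and *Krt8*. How many of all probe sets had their lowest value on this array was not counted. The keratins *Krt8* and *Krt18*, which luminal cells share with other simple epithelia, were 13.64 and 14.20 there, and were 13.41 to 13.55 and 14.14 to 14.25 on the other arrays. The mean of 13 of 15 luminal and androgen-response genes was 11.14, 11.31, 11.36 and 11.37 on the knockout arrays and 11.49, 11.37, 11.42 and 11.26 on the wild-type arrays. Knockout array 1 was thus the lowest, by 0.12. Whether luminal cells were fewer in that sample was not tested.

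Seminal vesicle transcripts were high on knockout array 1 and about as high on wild-type array 1. The mean log2 value of 6 of 8 markers (*Svs2*, *Svs3a*, *Svs4*, *Svs5*, *Svs6* and *Pate4*, secretory proteins of the seminal vesicle) was 13.81, 10.04, 9.90 and 9.04 on the knockout arrays and 14.15, 7.88, 9.65 and 9.02 on the wild-type arrays. On wild-type array 1, however, *Sbp/Sbpl* was 14.16, *Msmb* 14.20 and *Apof* 12.78, values within (*Sbp/Sbpl* and *Msmb*) or above (*Apof*) those of the other wild-type arrays. Without these 2 arrays the log2 difference was 0.17 for *Sbp/Sbpl*, 0.14 for *Msmb*, -0.22 for *Apof* and 0.46 for *Acpp*. Smooth muscle markers (8 of 8) averaged 12.93 on knockout array 1 and 12.43 to 12.62 on the other 7. The part of these tissues in the low *Sbp/Sbpl*, *Msmb* and *Apof* values was not tested.

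**Figure D3:**
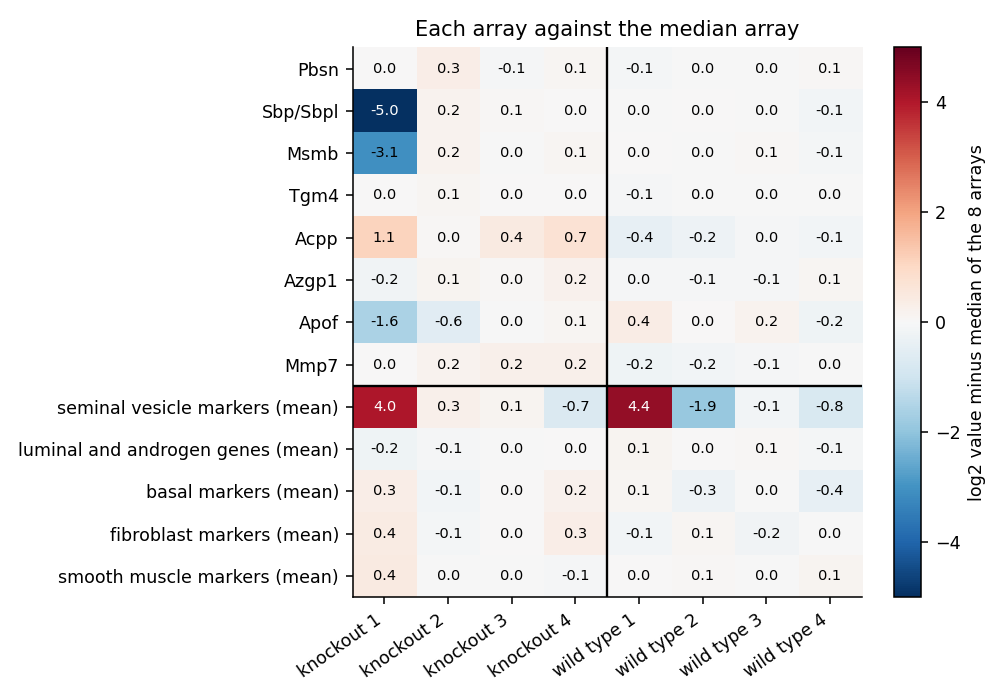
Log2 value of each gene, or mean of each marker list, on each of the 8 arrays minus its median over the arrays (colour and printed number), with knockout arrays on the left and wild-type arrays on the right. Knockout array 1 is at -5.0 for *Sbp/Sbpl* and -3.1 for *Msmb*, and the seminal vesicle markers are raised on knockout array 1 (4.0) and wild-type array 1 (4.4).

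The spread between arrays differed among the secretory products. The residual SD, the spread that remains within genotype and array day, had a median of 0.144 over all probe sets, and its 90th percentile was 0.329. Of the 10 probe sets 5 lay above that percentile, *Sbp/Sbpl* (1.83), *Msmb* (1.14), *Apof* (0.51) and 2 of *Acpp*. *Tgm4* (0.036) was at percentile 1.24, *Mmp7* at 25.3, *Azgp1* at 34.8 and *Pbsn* at 45.6. The 136 probe sets with a mean of at least 14 had a median residual SD of 0.035, at percentile 1.19, so a spread as small as that of *Tgm4* was usual for probe sets this bright. Without knockout array 1 none of the 10 lay above the 90th percentile, but *Apof* was just under it at percentile 89.7, as were 2 *Acpp* probe sets at 89.4 and 87.1, while *Msmb* was at 15.9 and *Sbp/Sbpl* at 3.12. Within wild-type prostate alone the SD of the 10 probe sets ran from 0.02 to 0.27, against a median of 0.131 over all probe sets.

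Of the 10 probe sets 6, *Pbsn*, *Sbp/Sbpl*, *Msmb*, *Tgm4*, *Azgp1* and *Mmp7*, had a mean of at least 13 and lay above the 99th percentile of mean values on these arrays. Brightness differs between probes for reasons other than abundance, so this places the signals on the scale of the array and is no ranking of transcripts.

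**Figure D4:**
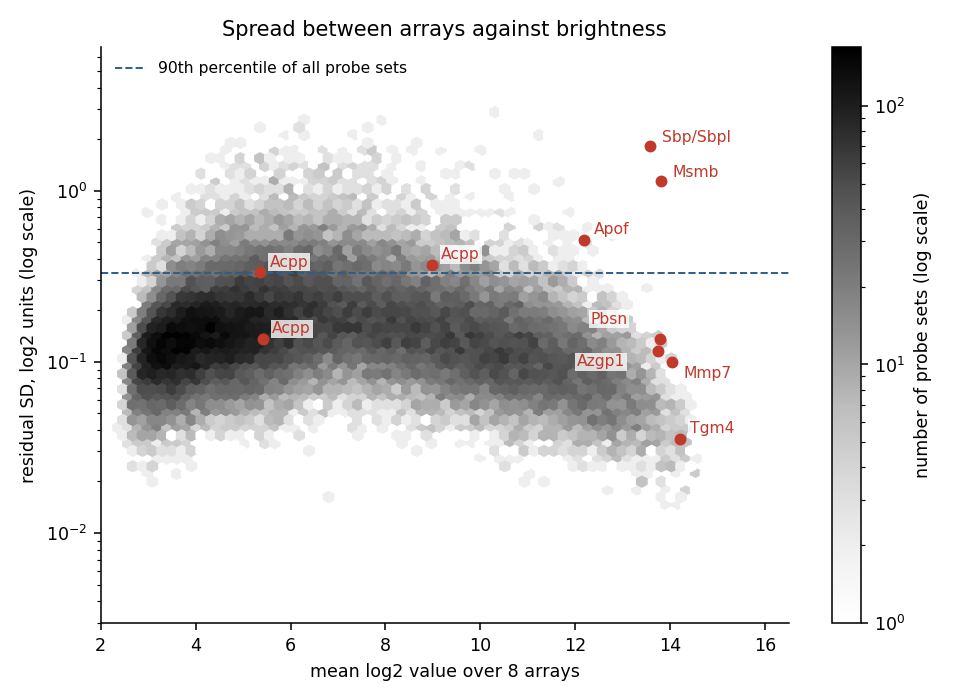
Residual SD (y axis, log scale) against the mean log2 value over the 8 arrays (x axis) for all 45037 probe sets (grey, darker where more lie) and the 10 probe sets of the secretory products (red). *Sbp/Sbpl*, *Msmb* and *Apof* lie above the dashed 90th percentile of 0.329, and *Tgm4* lies at 0.036.

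The genes whose pattern over the 8 arrays was most like each product were listed as a description, by Pearson correlation, among probe sets with 1 symbol and a mean of at least 7. For *Sbp/Sbpl* they were *Msmb* (r = 0.999), *Wfdc3* (0.998) and *Cdcp3* (0.996), and for *Msmb*, *Wfdc3* and *Cdcp3* again with *Lpcat2*. These values rest on knockout array 1: without it the correlation of *Sbp/Sbpl* was 0.77 with *Msmb*, 0.04 with *Wfdc3* and 0.47 with *Cdcp3*. For *Apof* they were *Mpc1* (0.998), a subunit of the mitochondrial pyruvate carrier, *Pon3* (0.994) and *Nme4* (0.989), and here the correlations were 0.96 to 0.99 without that array too. For the brightest *Acpp* probe set they were *Lynx1* (0.960), *Pkn3* and the receptor tyrosine kinase *Axl*, and for *Mmp7* the transcriptional coactivator *Yap1* (0.965), *Acap2* and *Fndc3a*. *Pbsn* was closest to *4932431P20Rik*, *Dnase2a* and *Pigh*, *Tgm4* to *Sclt1*, *Lsm14a* and *Strn3*, and *Azgp1* to *Cnot7*, *Oard1* and *Usp54*. All points share 8 libraries and their normalization, and with so many probe sets high values of r are found for any gene.

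The other secreted proteins listed for the gland were not called either, where 0.111% of all probe sets were called. Of 15 listed 14 were measured, 8 had a positive and 6 a negative difference, and the smallest p belonged to *Psca*, a prostate stem cell antigen anchored at the cell surface (9.07, 8.87, 9.49 and 8.48 on the knockout arrays and 10.28, 9.95, 9.33 and 9.18 on the wild-type arrays). Its groups overlapped at knockout array 3 (log2 difference -0.71, adjusted p = 0.391 from limma). *Agr2*, a protein disulphide isomerase of mucus-secreting cells, had knockout values of 14.27 to 14.33 and wild-type values of 14.18 to 14.24, which did not overlap (difference 0.11, adjusted p = 0.46). Over all probe sets, 3.69% had knockout values that all lay above the wild-type values. The kallikrein *Klk1* differed by -0.20 (adjusted p = 0.547).

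Of the machinery that loads and folds secreted proteins, all 12 listed genes, among them the translocon subunits *Sec61a1* and *Sec61b*, were measured. None was called, where 0.111% of all probe sets were called. At an unadjusted p under 0.05, 2 were higher in knockout prostate and 0 lower, where 5.46% of all probe sets were higher and 7.34% lower. The differences of 6 were positive and of 6 negative, with a median of 0.002. *Pdia4*, a disulphide isomerase of the endoplasmic reticulum, was 10.34, 9.83, 10.32 and 9.33 on the knockout arrays and 9.21, 9.31, 9.18 and 9.55 on the wild-type arrays. Knockout array 4 lay among the wild-type arrays and the other 3 lay above them (difference 0.64, adjusted p = 0.329 from limma). *Xbp1*, the transcription factor that expands secretory capacity, differed by 0.18 (adjusted p = 0.374), with no overlap between knockout values of 11.73 to 11.90 and wild-type values of 11.49 to 11.69. Knockout values that all lay above the wild-type values were found for 3.69% of all probe sets. The third by p, the chaperone *Hspa5*, differed by 0.09 (adjusted p = 0.6).

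None of the remaining marker lists held a called gene, where 0.111% of all probe sets were called. The smallest p of the luminal list belonged to *Steap4* (log2 difference 0.31, adjusted p = 0.399 from limma), of the basal list to *Dst* (0.30, adjusted p = 0.262) and of the fibroblast list to *Col3a1* (0.27, adjusted p = 0.407). Of 8 leukocyte markers 6 had a negative difference, led by *Cd3e*, a CD3 subunit of the T-cell receptor complex (-0.66, adjusted p = 0.281). Of 5 urothelial markers 3 had a positive difference, led by *Upk3b* (1.73, adjusted p = 0.28). Of 5 skeletal muscle markers 4 had a positive difference, and their mean was 9.63 on knockout array 3 and 7.32 to 8.14 on the others. Of 6 epididymis and vas deferens markers, 4 were measured, with means from 4.55 to 4.87 on all 8 arrays.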

How the data were processed

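The authors made the deposited log2 values with RMA, whose steps are background correction, quantile normalization across arrays and a summary of the probes in each probe set. The RMA version was not given in the sources used here. RNA was extracted with Trizol according to the labels and with the RNeasy Plus Mini Kit according to the methods. No detection calls were used. The precision is limited by the number of arrays.

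Values were taken as deposited, without further normalization. The 64 control probe sets were left out. Of the remaining 45037, 34945 had 1 gene symbol in the platform annotation, 932 had several and 9160 had none. Knockout and wild-type arrays (4 each) were set against each other in R 4.3.3 with the lmFit and eBayes functions of limma 3.58.1 (terms for genotype and array day, 2-sided), with p adjusted by the Benjamini-Hochberg method over all 45037. The methods name ANOVA with false discovery rates and no covariates, so that was run as an alternative. The fit was tested on simulated data. A list gene was represented by its brightest probe set with 1 symbol.

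The members, gene lists and tests were chosen with earlier results of these data known. The rule for named genes takes *Olfm4*, all members at every probe set, up to 3 genes with the smallest p of each list, every seminal vesicle marker, and for each member the 3 genes most correlated with it among probe sets with a mean of at least 7. Other list genes, and those low on knockout array 1, were named after their values were seen. Promoters came from the RefSeq table of GRCm38.p6. Alternatives were the fit without array day, a replicate block, ANOVA, array weights, robust variance with an intensity trend, median centring, quantile normalization, filters at mean log2 values of 5 and 7, a gene's probe sets averaged, each array day alone, and leaving out arrays.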

Additional observations from a re-analysis of the deposited data

Results flagged for a closer look

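Dixon's critical value for the gap over the range was applied to 20 groups of 4 arrays (10 probe sets in 2 genotypes). In 3 groups an array lay past it. About 1 in 20 groups of this size would pass it if values were drawn from a normal distribution. The share among all probe sets was not computed, so the count has no background from these arrays. The *Sbp/Sbpl* and *Msmb* values below lie on the same array, which stood apart from the rest, and are not separate events. The lowest knockout value of *Sbp/Sbpl*, 9.16 on knockout array 1, had a gap of 0.973 of the range. The lowest knockout value of *Msmb*, 11.09 on the same array, had a gap of 0.934. The highest wild-type value of *Azgp1*, 13.81 on wild-type array 4, had a gap of 0.832, in a group whose values otherwise ran from 13.67 to 13.69.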

How the results depend on the processing

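No probe set of a secretory product was called under any of the alternatives run. The sign turned for *Sbp/Sbpl* (main log2 difference -1.15) to 0.13 on array day 1 alone and 0.17 without the 2 arrays rich in seminal vesicle transcripts, for *Msmb* (main -0.70) to 0.053 and 0.14 under the same settings, and for the *Acpp* probe set 1453943_a_at (main 0.11) to -0.0087 without those 2 arrays. With each array left out in turn, *Sbp/Sbpl* ran from -1.94 (without knockout array 2) to 0.14 (without knockout array 1) and *Msmb* from -1.20 to 0.10 without the same arrays. No other member turned its sign. The count of all probe sets called, 50, was 15 with a replicate block, 24 with ANOVA without array day, and 4 on array day 1 alone and 4 on array day 2 alone. It ran from 17 (without wild-type array 2) to 43 (without knockout array 1), and was 24, 26 and 20 without knockout arrays 2, 3 and 4 and 19 without wild-type array 3. The count of members above the 90th percentile of residual SD, 5, was 3 with a replicate block, 0 on array day 1 alone and 2 without the 2 arrays rich in seminal vesicle transcripts. It ran from 0 (without knockout array 1) to 5, with 3 without knockout array 2. The cause of these changes was not tested, beyond the smaller number of arrays in several. Same-numbered arrays deviated together with correlations of 0.34, 0.17, 0.04 and -0.01 for numbers 1 to 4, and not every array correlated best with its own number, so the numbers were not taken as pairs. With a gene's probe sets averaged, which leaves out *Sbp/Sbpl* for its 2 symbols, 24 genes were called in all and 2 members lay above the 90th percentile.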

Other observations

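Of the 14 other secreted proteins measured, knockout array 1, on which *Sbp/Sbpl* was lowest, was the highest array for 4 and the lowest for 3. The genes given here were named after their values were seen. *Clu*, the secreted chaperone clusterin, was 14.48 there and 12.84 to 13.61 on the other 7 arrays. *Lcn2*, a lipocalin that binds bacterial siderophores, was 13.29 there and 10.28 to 11.79 elsewhere, and *Ltf*, the iron-binding lactoferrin, was 9.38 there and 5.34 to 6.82 elsewhere. *Timp1* was 10.21 there and 8.89 to 10.04 elsewhere. *Pigr*, the receptor that carries immunoglobulin A into secretions, went the other way, at 9.18 there and 11.39 to 12.81 elsewhere. So did *Wfdc2*, at 9.06 there and 9.79 to 11.14 elsewhere, and *Spink1*, given above. *Upk1a*, a uroplakin, was also low there, at 8.82 against 11.70 to 12.53, but the urothelial markers as a list were divided. Of the 5 measured, knockout array 1 was the lowest array for 2 (*Upk1a* and *Upk3a*) and the highest for 3 (*Upk1b*, *Upk2* and *Upk3b*). *Ceacam10* and *Spinkl* were high on both arrays rich in seminal vesicle transcripts, at 13.02 and 11.61 on knockout array 1 and 13.49 and 12.84 on wild-type array 1. Each value is that of a single mouse and none was tested.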
